A study of Mus musculus with 9 samples.

Results

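The Notch pathway was followed in podocytes, the cells whose foot processes cover the capillaries of the glomerulus, sorted from diabetic OVE26 mice and normal FVB mice. Its 10 members were 2 receptors (Notch1 and Notch2), 4 ligands (Jag1, Jag2, Dll1 and Dll4), the DNA-binding factor Rbpj and 3 transcriptional targets (Hes1, Hey1 and Heyl). They were chosen by name, with earlier results of these data known. Every probe set whose platform symbol was exactly one of these names was taken, which gave 20 of the 45037 probe sets that are not controls. All 10 members had at least 1 probe set.

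The OVE26 group held 5 arrays from mice labelled OVE-GFP and diabetic, and the FVB group held 4 arrays from mice labelled wild type and normal. Both groups had the FVB background and were 3 to 4 months old. OVE26 is a transgenic model in which calmodulin overexpressed in pancreatic beta cells causes early diabetes. A green fluorescent protein reporter of podocytes had been bred into the OVE26 line, and fluorescent cells were sorted from trypsin-digested glomeruli. Whether the mice labelled wild type carried the reporter, which promoter drove it, and the sex of the mice are not stated in the labels. Each array is labelled as a separate mouse, and the spread between arrays also holds differences between sorts and RNA amplifications.

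Notch signalling passes between neighbouring cells. A Delta or Jagged ligand on one cell binds a Notch receptor on the next, a metalloprotease and then the gamma-secretase complex cut the receptor, and the freed intracellular part joins Rbpj on DNA to switch on genes such as the Hes and Hey repressors. In the kidney Notch2 is needed to form podocytes and proximal tubules, the pathway is low in mature podocytes, and renewed Notch activity in podocytes damages the filtration barrier in mice.

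Promoter windows show the letters through which the pathway is read out. RefSeq windows of 300 bases (GRCm38.p6, 250 bases before to 50 after a gene's start) were found for 7 of the 10 members, and none was found for Hes1, Hey1 or Heyl. An exact match on either strand to GTGGGAA, the letters bound by Rbpj, occurred in 6.38% of all 32851 windows and in 0 of the 9 member windows. The letters CACGCG, bound by Hes and Hey repressors, occurred in 9.27% of all windows and in 5 of the 9 member windows. Those 5 windows belong to Notch2, Jag1, Jag2, Dll1 and Dll4. The letters CACGTG were searched as well, and occurred in 7.15% of all windows and in 0 of the 9 member windows. The reverse complement of GTGGGAA ends in CAC, with which CACGCG begins, so matches to both can overlap by those letters. The Notch2 window (chr3:98013288-98013587, plus strand) is shown because Notch2 was the member nearest to the threshold, with CACGCG in capitals. Those of the Hes5 (chr4:154960673-154960972, plus strand) and Hey2 (chr10:30842734-30843033, minus strand) genes are shown as measured targets that hold the Rbpj letters. GTGGGAA or its reverse complement TTCCCAC is in capitals at 2 places in each. These windows are not typical, since GTGGGAA occurred in 8 of 76 windows of the wider pathway genes listed below. The 8 belong to the targets Hes5, Hes7 and Hey2 and to Psen2, Rbpjl, Aph1a, Spen and Lfng, which are not listed as targets. A match is a run of letters and not a binding site.
Notch2: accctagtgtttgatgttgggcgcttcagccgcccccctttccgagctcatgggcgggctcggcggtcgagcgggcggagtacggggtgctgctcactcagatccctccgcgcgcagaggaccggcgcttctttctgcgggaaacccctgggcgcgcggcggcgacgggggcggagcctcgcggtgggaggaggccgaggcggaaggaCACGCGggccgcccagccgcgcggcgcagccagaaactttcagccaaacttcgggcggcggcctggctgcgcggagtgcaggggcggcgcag
Hes5: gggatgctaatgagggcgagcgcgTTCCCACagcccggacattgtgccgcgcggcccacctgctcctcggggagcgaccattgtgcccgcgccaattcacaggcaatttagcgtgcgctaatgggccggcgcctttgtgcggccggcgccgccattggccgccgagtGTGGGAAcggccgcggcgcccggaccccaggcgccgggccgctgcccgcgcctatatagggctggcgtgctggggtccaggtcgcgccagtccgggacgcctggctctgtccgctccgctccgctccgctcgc
Hey2: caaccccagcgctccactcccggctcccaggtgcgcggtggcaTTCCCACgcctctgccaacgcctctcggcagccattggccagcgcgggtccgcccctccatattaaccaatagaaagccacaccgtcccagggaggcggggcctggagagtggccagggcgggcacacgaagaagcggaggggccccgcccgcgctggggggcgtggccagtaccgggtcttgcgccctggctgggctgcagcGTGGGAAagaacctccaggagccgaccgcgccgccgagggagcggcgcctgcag

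Values are log2 probe set intensities, and a difference is OVE26 minus FVB on that scale. Levels were compared between groups within a probe set and never between probe sets. Array medians ran from 5.07 to 5.15, and Pearson's r over all probe sets (which are no replicates of each other) was 0.960 to 0.985 between OVE26 arrays, 0.980 to 0.989 between FVB arrays and 0.964 to 0.984 between the groups. The number of arrays limits the precision. Podocyte markers were bright in both groups, for example Podxl at 12.99 in OVE26 and 13.10 in FVB arrays. The mean of the markers for loop, distal tubule and collecting duct was 7.19 to 8.45 per OVE26 array and 5.71 to 6.95 per FVB array. Of 24 such markers measured of 25 listed, 2 rose by limma, where 0.357% of 18193 genes (each read from its brightest probe set) passed in either direction. All 24 had a positive difference, where 47.4% of all genes had a negative one. Of the 24, 17 were higher and 0 lower at an unadjusted p under 0.05, where 8.70% of all genes were higher and 5.85% lower. Macrophage markers averaged 4.94 to 6.20 per OVE26 array and 4.70 to 4.98 per FVB array, and 0 of 18 passed by limma. At an unadjusted p under 0.05, 10 of the 18 were higher and 1 lower (Mrc1, by -1.35), where 8.70% of all genes were higher and 5.85% lower. Glomerular endothelial markers were present in both, at 7.65 to 8.64 per OVE26 array and 7.63 to 8.63 per FVB array. Parietal epithelial markers averaged 6.97 to 7.65 per OVE26 array and 5.90 to 6.77 per FVB array. By limma 2 of 11 measured of 12 listed rose, the keratin genes Krt8 (adjusted p = 0.0176) and Krt18 (adjusted p = 0.0417). A positive difference was seen in 10 of the 11. Of the 11, 7 were higher and 1 lower (Ncam1, by -0.49) at an unadjusted p under 0.05. Proximal tubule markers averaged 6.20 in OVE26 2 and 8.56 to 9.17 in the other OVE26 arrays, against 8.183 to 8.996 in FVB arrays, and 0 of 16 passed (0 at an unadjusted p under 0.05). What these other cells add to the values of the Notch genes was not tested.

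The comparison asks whether expression of Notch pathway genes differs between podocytes of diabetic and normal mice. None of the 20 probe sets passed an adjusted p of 0.05 in either direction (limma with Benjamini-Hochberg adjustment over all 45037 probe sets), where 0.271% of all probe sets did. At an unadjusted p under 0.05 there were 2, both of Notch2 and both lower in OVE26, which makes 2 of 20 beside 13.7% of all probe sets. The median difference of the 20 was -0.02, beside -0.01 over all probe sets. Differences ran from -0.44 for Hey1 to 0.31 for Hes1. The 95% confidence interval of each single difference lay within a 2-fold change in either direction for 19 of the 20, the exception being Hey1, and for 84.3% of all probe sets.

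**Figure D1:**
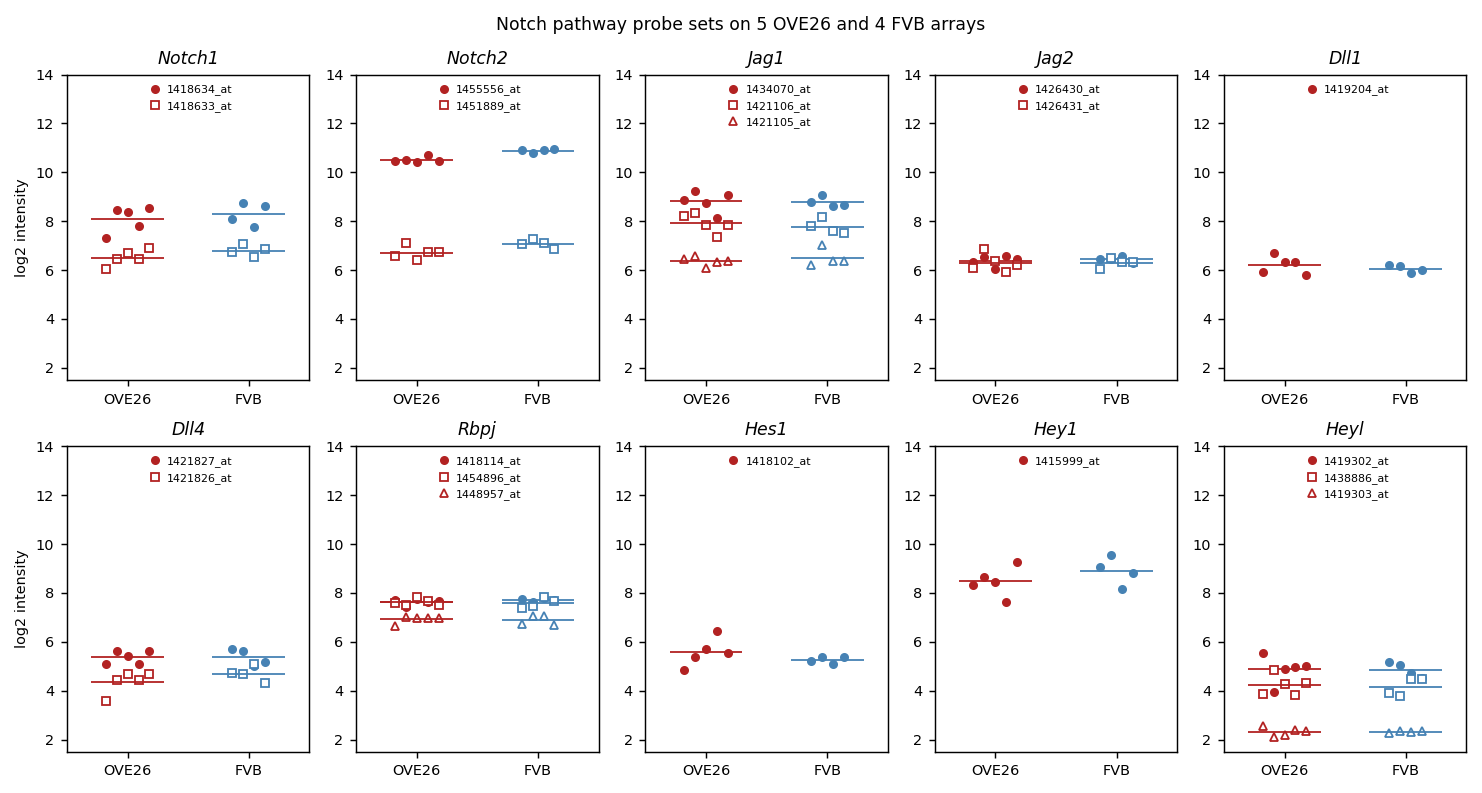
Log2 intensity (vertical axis) of every probe set of the 10 genes on 5 OVE26 (red) and 4 FVB (blue) arrays, 1 panel per gene; points are arrays, horizontal lines are group means, and filled circles mark the gene's brightest probe set. The groups overlap for every probe set except Notch2 1455556_at, whose OVE26 points (10.44 to 10.72) lie under the FVB points (10.78 to 10.93).

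Among the receptors, Notch2 came nearest to a difference. Its brightest probe set, 1455556_at, read 10.47, 10.50, 10.44, 10.72 and 10.45 in the 5 OVE26 arrays, against 10.93, 10.78, 10.92 and 10.93 in the 4 FVB arrays. Every OVE26 array lay under every FVB array, with OVE26 4 and FVB 2 closest to each other. The means were 10.51 ± 0.12 in the 5 OVE26 and 10.89 ± 0.07 in the 4 FVB arrays (SD), a difference of -0.37 (SE 0.10, 95% confidence interval -0.60 to -0.15). That did not pass the test (limma, adjusted p = 0.154). Of all probe sets, 2.78% had OVE26 arrays wholly under FVB arrays, and of the 20 members this one did.

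The other Notch2 probe set, 1451889_at, differed by -0.37 as well. It read 6.57, 7.09, 6.40, 6.73 and 6.75 in OVE26 arrays and 7.07, 7.28, 7.10 and 6.86 in FVB arrays, and the groups overlapped through OVE26 2 and FVB 4. The interval ran from -0.71 to -0.03 (limma, adjusted p = 0.324). Both probe sets had mean levels in OVE26 near 0.77 of those in FVB, at folds of 0.772 and 0.775.

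No podocyte marker gene passed the test. Of 17 podocyte markers measured of 20 listed, 0 passed by limma and 7 were lower at an unadjusted p under 0.05, where 5.85% of all genes were. A negative difference was seen in 16 of the 17, where 47.4% of all genes had one, and the exception was Cdkn1c. Their median was -0.24, beside 0.01 over all genes. The mean level of the list was 10.56 to 11.00 per OVE26 array and 10.99 to 11.27 per FVB array. The slit diaphragm gene Nphs1 differed by -0.50 (adjusted p = 0.246) and the podocyte transcription factor Wt1 by -0.39 (adjusted p = 0.251) by limma. Beyond a correlation over arrays given below, the part of these markers in the Notch2 difference was not tested. In sorted bulk samples fewer podocytes and less RNA per podocyte cannot be told apart.

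**Figure D2:**
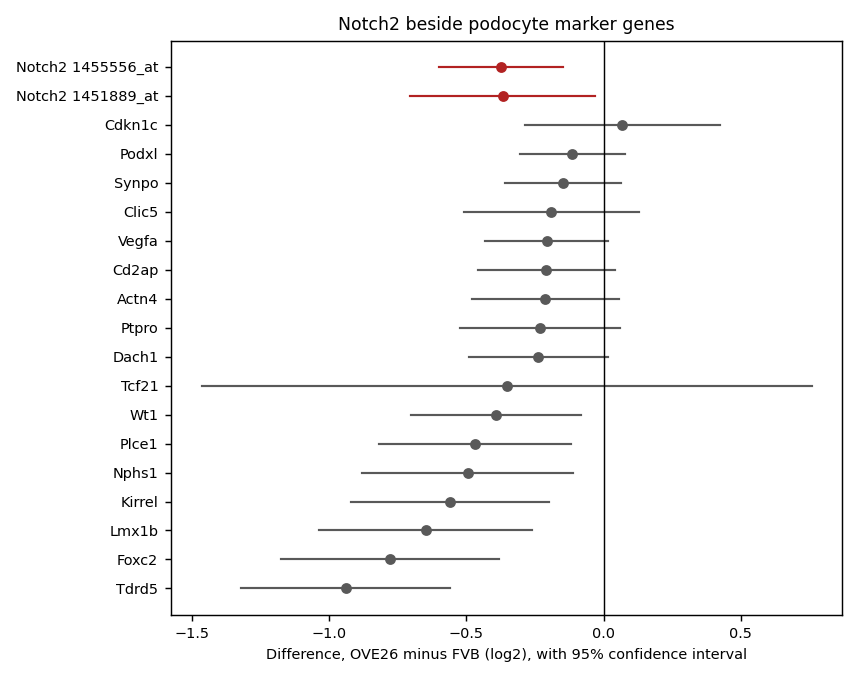
Difference OVE26 minus FVB in log2 units (horizontal axis) with 95% confidence intervals for both Notch2 probe sets (red) and for 17 podocyte marker genes (grey, brightest probe set, ordered by size). The Notch2 values of -0.37 and -0.37 lie inside the range of the markers, which runs from -0.94 for Tdrd5 to 0.07 for Cdkn1c.

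Notch1, the receptor best known from endothelium and blood cells, had both probe sets lower on average in OVE26 and neither passed. Probe set 1418634_at read 7.31, 8.45, 8.37, 7.79 and 8.52 in OVE26 arrays, against 8.07, 8.73, 7.78 and 8.63 in FVB arrays. OVE26 1 was the lowest and FVB 2 the highest, and the groups overlapped over most of their range. The difference was -0.22 (SE 0.29, 95% confidence interval -0.87 to 0.44, limma, adjusted p = 0.811). Without OVE26 1 it was -0.020, and over all fits that left out 1 array it ran from -0.39 to -0.020. The dimmer probe set 1418633_at averaged 6.50 ± 0.33 in the 5 OVE26 and 6.79 ± 0.22 in the 4 FVB arrays (SD; limma, adjusted p = 0.537).

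The members were also set beside marker levels over the arrays. Over 9 arrays the brightest Notch1 probe set had a Pearson's r of 0.83 with the mean of the glomerular endothelial markers (2-sided exact permutation p = 0.00688, adjusted p = 0.103 over 30 relations) and a Spearman's rho of 0.78 (exact permutation p = 0.0172, adjusted p = 0.258). The r was 0.83 with group means removed and 0.89 without the 2 arrays farthest from the median marker level. Neither passed the adjustment. Notch2 1455556_at had an r of 0.66 with the podocyte marker mean (2-sided exact permutation p = 0.0615, adjusted p = 0.373). Its Spearman's rho was 0.70 (exact permutation p = 0.0433, adjusted p = 0.326). With group means removed its r was -0.26, and without the 2 arrays farthest from the median podocyte marker level it was 0.86. Jag2 1426430_at had an r of -0.76 with the mean of the mesangial and smooth muscle markers (2-sided exact permutation p = 0.0229, adjusted p = 0.229). Without the 2 arrays farthest from the median of that list it was -0.09. With the endothelial marker mean its r was -0.61 (exact permutation p = 0.0695, adjusted p = 0.373). The 30 relations set 10 members against podocyte, endothelial and mesangial markers, and 0 of them passed. The tubule, parietal epithelial and macrophage lists were not set against the members.

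The ligands showed no difference beyond the spread between arrays. Jag1, the Jagged ligand whose loss of 1 copy causes Alagille syndrome in people, read 8.86, 9.22, 8.74, 8.14 and 9.07 in OVE26 arrays and 8.80, 9.08, 8.63 and 8.64 in FVB arrays on its brightest probe set, 1434070_at. OVE26 arrays held both the highest and the lowest value. The difference was 0.02 (95% confidence interval -0.45 to 0.49, limma, adjusted p = 0.985). Of its other probe sets, 1421106_at differed by 0.15 and 1421105_at by -0.12, so the 3 did not run one way.

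Jag2, the second Jagged ligand, differed by -0.05 on 1426430_at and by -0.02 on 1426431_at. On the first it read 6.33, 6.54, 6.05, 6.55 and 6.44 in OVE26 arrays and 6.43, 6.43, 6.57 and 6.29 in FVB arrays. OVE26 3 was the lowest of all and FVB 3 the highest. The 95% confidence interval of the difference was -0.33 to 0.24 (limma, adjusted p = 0.918).

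Dll1, a Delta ligand with 1 probe set, read 5.90, 6.68, 6.34, 6.32 and 5.79 in OVE26 arrays, against 6.20, 6.18, 5.86 and 6.00 in FVB arrays. OVE26 2, 3 and 4 lay over every FVB array and OVE26 5 lay under all of them. The difference was 0.15 (95% confidence interval -0.27 to 0.56, limma, adjusted p = 0.797). Dll4, the Delta ligand of endothelial tip cells and arteries, averaged 5.37 ± 0.28 in the 5 OVE26 and 5.38 ± 0.34 in the 4 FVB arrays (SD) on 1421827_at (limma, adjusted p = 0.986). Its dimmer probe set 1421826_at differed by -0.35 (95% confidence interval -0.89 to 0.19, limma, adjusted p = 0.584), with OVE26 1 at 3.56 far under the other 4 OVE26 arrays (4.43 to 4.68), and without that array the difference was -0.15.

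Rbpj, through which all 4 Notch receptors act on DNA, varied little over the 9 arrays. Its probe set 1418114_at read 7.71, 7.42, 7.75, 7.62 and 7.69 in OVE26 arrays and 7.74, 7.64, 7.81 and 7.70 in FVB arrays, a span of 0.39 over all 9. The span was the smallest among the 20 probe sets, where the largest was 1.94 for Hey1. The difference was -0.08 (SE 0.10, 95% confidence interval -0.32 to 0.15, limma, adjusted p = 0.794). The other Rbpj probe sets differed by 0.03 (1448957_at) and 0.04 (1454896_at), with intervals of -0.27 to 0.32 and -0.24 to 0.32.

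The 3 target genes of the member set did not run one way. Hes1, a repressor that Notch switches on directly in many tissues, read 4.83, 5.37, 5.69, 6.44 and 5.53 in OVE26 arrays, against 5.21, 5.37, 5.09 and 5.37 in FVB arrays. OVE26 arrays held both the highest value (OVE26 4) and the lowest (OVE26 1), and 3 of them lay over every FVB array. The SD was 0.58 in OVE26 (n = 5) and 0.13 in FVB (n = 4). The difference was 0.31 (SE 0.27, 95% confidence interval -0.29 to 0.91, limma, adjusted p = 0.668), and without OVE26 4 it was 0.09.

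Hes1 had the largest negative correlation with podocyte markers among the members. Its Pearson's r with the podocyte marker mean over 9 arrays was -0.79 (2-sided exact permutation p = 0.00532, adjusted p = 0.103 over 30 relations) and Spearman's rho -0.86 (exact permutation p = 0.00446, adjusted p = 0.134). With group means removed r was -0.90, and without the 2 arrays farthest from the median marker level it was -0.47. The relation did not pass the adjustment, and its size rests in part on those 2 arrays.

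Hey1, a repressor of the Hey family that is strong in endothelium, had the largest difference and the widest spread of the members. It read 8.34, 8.63, 8.47, 7.62 and 9.28 in OVE26 arrays and 9.08, 9.56, 8.17 and 8.83 in FVB arrays. OVE26 4 was the lowest and FVB 2 the highest, yet OVE26 5 lay over 3 of the 4 FVB arrays. The difference was -0.44 (SE 0.34, 95% confidence interval -1.21 to 0.32, limma, adjusted p = 0.632), so a fall of 2-fold lies inside its interval. Leaving out 1 array gave -0.69 (without FVB 3) to -0.22 (without FVB 2), with -0.23 without OVE26 4. Its r with the endothelial marker mean was 0.62 (Spearman's rho 0.65, exact permutation p = 0.0747 and 0.0666, adjusted p = 0.373 and 0.326). With group means removed r was 0.63, and without the 2 arrays farthest from the median marker level it was 0.71.

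Heyl, a Hey relative known from vascular smooth muscle, averaged 4.87 ± 0.58 in the 5 OVE26 and 4.86 ± 0.30 in the 4 FVB arrays (SD) on 1419302_at, a difference of 0.01 (limma, adjusted p = 0.992). Probe set 1438886_at differed by 0.06 and 1419303_at by -0.01. The last lay under the array's 25th percentile (a mean of 3.31) on all 9 arrays, a range in which signal cannot be separated from background. Of the 7 members with several probe sets, 4 had all of them on the same side, each lower on average in OVE26 (Notch1, Notch2, Jag2 and Dll4). The Jag2 differences (-0.05 and -0.02) and that of Dll4 1421827_at (-0.01) lay near 0, and each changed sign in some alternative. The share of all genes with probe sets on the same side was not counted.

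**Figure D3:**
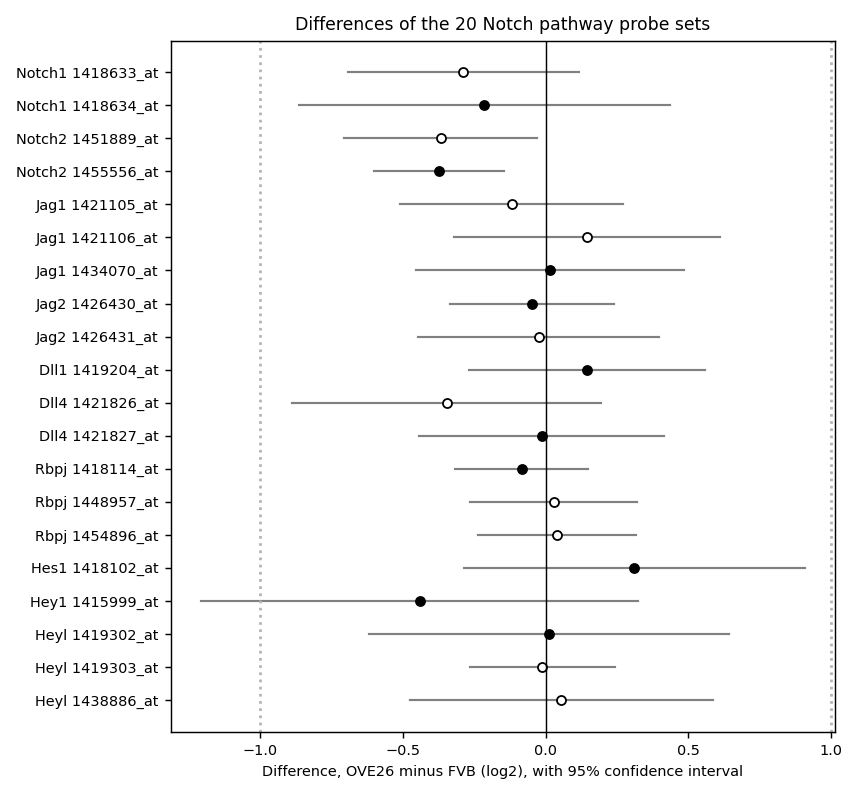
Difference OVE26 minus FVB in log2 units (horizontal axis) with 95% confidence intervals for the 20 probe sets of the 10 genes; filled points are each gene's brightest probe set, and dotted lines mark a 2-fold change. Both Notch2 intervals lie under 0, Hey1's interval (-1.21 to 0.32) alone crosses a dotted line, and the rest span 0.

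The rest of the pathway was read from each gene's brightest probe set. Of 75 genes listed by role, 70 were measured, including the 10 members, and the others were not analysed here. Among the 70, Dner and Dtx1 lay under the array's 25th percentile on all 9 arrays, where signal cannot be separated from background. None of the 70 passed in either direction by limma, where 0.357% of all genes did. At an unadjusted p under 0.05, 4 were higher (Aph1b, Neurl1b, Myc and Cdkn1a) and 2 lower (Notch2 and Tle4) in OVE26, which makes 6 of 70 beside 14.5% of all genes. Their median difference was -0.01, beside 0.01 over all genes. In 3 of the 70 (Notch2, Myc and Sox9) the groups did not overlap, beside 6.26% of all genes.

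The other receptors lay on both sides. Notch3 is the receptor of vascular smooth muscle. Its brightest probe set averaged 5.78 ± 0.26 in the 5 OVE26 and 6.07 ± 0.31 in the 4 FVB arrays (SD). The difference was -0.30 (limma, adjusted p = 0.518). The dimmer Notch3 probe set 1421964_at differed by -0.57 (confidence interval -1.16 to 0.01, limma, adjusted p = 0.372). Notch4, the endothelial receptor, differed by 0.13 (limma, adjusted p = 0.870). Of the ligands outside the member set, Dll3 differed by -0.06, the Delta-like protein gene Dlk1 by 0.14 and Dlk2 by -0.20, and none passed.

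Of 7 genes measured that cut the receptor, 1 (Aph1b) had an unadjusted p under 0.05. Of 5 that glycosylate it 0 did, where 14.5% of all genes did. Aph1b, a subunit of gamma-secretase, read 6.94, 6.68, 6.22, 7.01 and 6.39 in OVE26 arrays and 6.38, 5.79, 6.29 and 5.86 in FVB arrays. OVE26 3 lay inside the FVB range and the other 4 above it. The difference was 0.57 (95% confidence interval 0.12 to 1.01, limma, adjusted p = 0.253). The dimmer Aph1b probe set 1456500_at differed by 0.29 (95% confidence interval -0.24 to 0.83, limma, adjusted p = 0.653). Psenen, another subunit, differed by 0.22 (adjusted p = 0.481), Poglut1, which adds glucose to Notch, by 0.25 (adjusted p = 0.523) and the fringe gene Mfng by -0.27 (adjusted p = 0.582). Of 7 sheddase and gamma-secretase genes measured 4 had a positive difference, and of 5 fringe and glycosylation genes 3 did. Over all 18193 genes 9573 did.

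Neurl1b, a ubiquitin ligase that drives ligand endocytosis, had the largest difference among the 12 endocytosis genes. Its values of 7.44, 8.52, 8.02, 8.06 and 8.02 in OVE26 arrays stood beside 6.89, 8.03, 6.17 and 7.49 in FVB arrays. FVB 2 and FVB 4 lay inside the OVE26 range, and FVB 1 and FVB 3 under it. The difference was 0.87 (95% confidence interval 0.10 to 1.64, limma, adjusted p = 0.307). Mib2, which also ubiquitinates ligands, differed by -0.26 (limma, adjusted p = 0.403).

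No partner of Rbpj in the nucleus passed the test. Among 7 coactivator genes the median was -0.05, with Kat2a, a histone acetyltransferase, at -0.24 (limma, adjusted p = 0.458) and the mastermind gene Maml2 at 0.15 (adjusted p = 0.848). Among 11 corepressor genes the median was -0.02. Tle4, a Groucho-family corepressor, differed by -0.36 (95% confidence interval -0.66 to -0.07, limma, adjusted p = 0.264) and Rbpjl, a paralogue of Rbpj, by 0.23 (adjusted p = 0.582). Fbxw7, the ubiquitin ligase subunit that marks the Notch intracellular part for degradation, differed by -0.18 (limma, adjusted p = 0.762).

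Among 15 target genes 10 had a positive difference, where 9573 of all 18193 genes did. Their median was 0.10, beside 0.01 over all genes. The largest differences were those of Myc and Cdkn1a, which many pathways besides Notch regulate. Myc, a growth-promoting transcription factor, read 5.22, 4.90, 6.51, 7.15 and 5.88 in OVE26 arrays, against 4.37, 4.68, 3.69 and 4.46 in FVB arrays. Every OVE26 array lay over every FVB array. The difference was 1.63 (SE 0.43, 95% confidence interval 0.67 to 2.60, limma, adjusted p = 0.148). Cdkn1a, the cell cycle inhibitor p21, differed by 1.47 (95% confidence interval 0.34 to 2.59, limma, adjusted p = 0.241), with OVE26 arrays at 8.60 to 11.24 and FVB arrays at 7.52 to 9.07.

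No other member of the Hes and Hey families passed. Hes6 differed by 0.22 (limma, adjusted p = 0.624) and Hes7 by -0.22 (adjusted p = 0.513). Hes5, whose window above holds the Rbpj letters at 2 places, averaged 3.79 ± 0.12 in the 5 OVE26 and 3.75 ± 0.14 in the 4 FVB arrays (SD; limma, adjusted p = 0.912). Hey2, with such letters at 2 places as well, averaged 5.21 ± 0.31 in the 5 OVE26 and 5.35 ± 0.14 in the 4 FVB arrays (SD; limma, adjusted p = 0.783). Hes5, Hes6, Hes7, Hey2, Nrarp and Sox9 were chosen for mention after their values were seen. Nrarp, a feedback inhibitor that Notch induces, differed by 0.16 on its brightest probe set (limma, adjusted p = 0.832) and by 1.08 on the dimmer 1417986_at (adjusted p = 0.270). The transcription factor gene Sox9 differed by 0.75 (limma, adjusted p = 0.504), with OVE26 4 at 7.45 and the other 4 OVE26 arrays at 5.16 to 5.27, against 4.65 to 5.13 in FVB arrays.

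**Figure D4:**
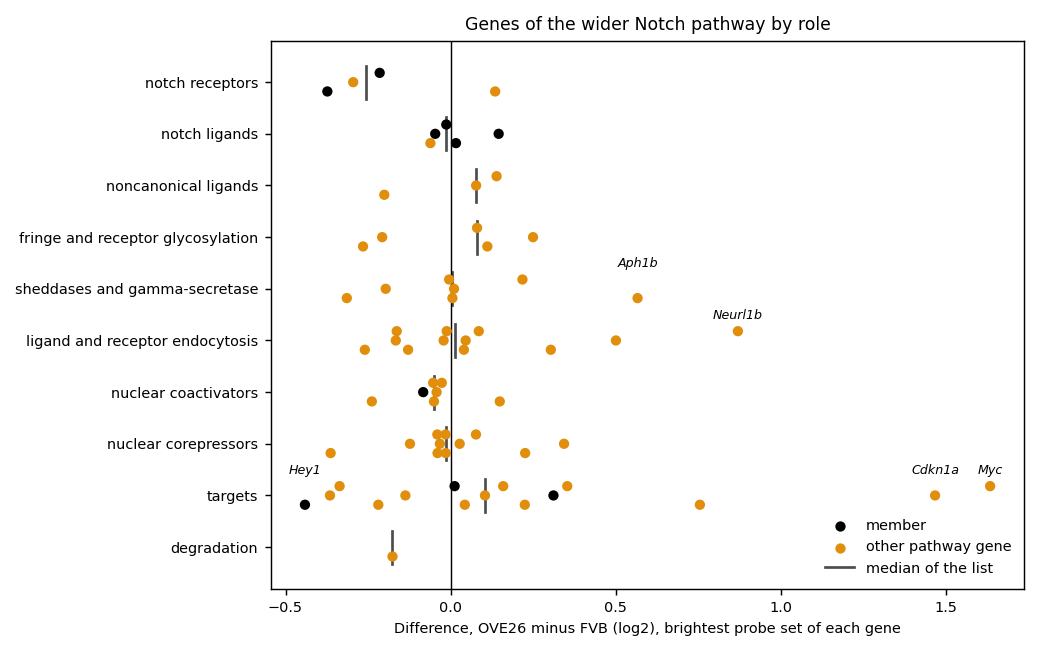
Difference OVE26 minus FVB in log2 units (horizontal axis) of the brightest probe set of 70 pathway genes, grouped by role (rows); black points are members, orange points other pathway genes, and vertical bars list medians. The 4 receptors have a median of -0.26 and the 15 targets one of 0.10, beside 0.01 over all genes. Myc at 1.63 and Cdkn1a at 1.47 lie farthest out.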

How the data were processed

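Podocyte RNA of 9 mice (5 OVE26, 4 FVB) was read on arrays, grouped by the sample titles. The deposited values are probe set intensities that the authors processed with RMA and Partek, per the submitters' processing notes; neither versions nor settings are stated. The range of the authors' intensity values shows a linear scale, and they were converted to log2 before testing. Of 45101 probe sets 64 controls were left out. Symbols came from the platform annotation (1 symbol for 34945 probe sets, several for 932, none for 9160). Genes outside the members were represented by the brightest of their probe sets (18193 genes).

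Groups were compared with limma 3.58.1 in R 4.3.3 (lmFit, eBayes, group as the only term, 2-sided) over 45037 probe sets, with Benjamini-Hochberg adjustment and a threshold of 0.05. The code was tested on simulated data. Correlations over arrays used exact permutation in Python 3.11.15. Named genes were all members and, per role list, any gene past the threshold or else the 2 non-members with the smallest p. The members and lists were chosen with earlier results of these data known, and the marker relations after the values were seen. Alternatives were quantile normalization, median centring, a filter on dim probe sets, 1 probe set per gene, robust variance with an intensity trend, weighting of arrays, a replicate block and leaving out arrays.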

Additional observations from a re-analysis of the deposited data

Results flagged for a closer look

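In 4 of the 40 groups of values examined (20 probe sets in OVE26 and in FVB arrays), 1 array stood apart by Dixon's criterion, which chance meets in about 1 group in 20. On Notch2 1455556_at, OVE26 4 was at 10.72 beside 10.44 to 10.50 in the other OVE26 arrays, and FVB 2 was at 10.78 beside 10.92 to 10.93 in the other FVB arrays. Both lay toward the other group. On Dll4 1421826_at, OVE26 1 was at 3.56 beside 4.43 to 4.68. On Rbpj 1448957_at, OVE26 1 was at 6.64 beside 6.96 to 7.02.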

How the results depend on the processing

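No member probe set passed in either direction under any of the 17 alternatives. Notch2 1455556_at stayed lower in OVE26 in all of them, at -0.44 to -0.35 (limma, adjusted p from 0.0776 to 0.364), and Notch2 1451889_at did in the 16 that held it, at -0.50 to -0.29. Since 0.271% of all probe sets passed in the main fit, a count of 0 among the 20 member probe sets says little about steadiness. The counts over all probe sets moved between the alternatives. Against 88 higher and 34 lower, array weights gave 218 and 122, and leaving out OVE26 2 and OVE26 4 together, chosen after seeing the data, gave 45 and 8. Leaving out 1 array gave 0 to 323 higher and 0 to 101 lower, namely 49 and 21 without OVE26 1, 39 and 9 without OVE26 4, 33 and 4 without OVE26 5, 1 and 0 without FVB 1, 323 and 101 without FVB 2, and 85 and 23 without OVE26 2 (0 in both without OVE26 3, FVB 3 or FVB 4, where limma had 5674, 4973 and 5021 at an unadjusted p under 0.05). The replicate block gave 0 and 0 (5353 at an unadjusted p under 0.05). The sample titles give same-numbered arrays no link beyond the number. Their deviations from the group means correlated at -0.18 to 0.11, and so few pairs cannot show whether they shared a batch. With the block, Jag1 1434070_at turned to -0.050 and Heyl 1419302_at turned to -0.022. With array weights, Dll4 1421827_at turned to 0.040, Heyl 1419303_at turned to 0.020 and Heyl 1438886_at turned to -0.025. Without OVE26 2 and OVE26 4, Dll1 1419204_at turned to -0.049, Rbpj 1448957_at turned to -0.034, Heyl 1419303_at turned to 0.039 and Heyl 1438886_at turned to -0.016. With 1 array left out, differences that crossed 0 ran from -0.17 to 0.070 for Jag2 1426431_at, -0.14 to 0.091 for Dll4 1421827_at, -0.16 to 0.24 for Heyl 1419302_at, -0.087 to 0.18 for Jag1 1434070_at, -0.068 to 0.041 for Heyl 1419303_at, -0.10 to 0.16 for Heyl 1438886_at, -0.094 to 0.037 for Jag2 1426430_at, -0.031 to 0.12 for Rbpj 1454896_at, -0.033 to 0.10 for Rbpj 1448957_at, -0.21 to 0.055 for Jag1 1421105_at, -0.028 to 0.30 for Notch4 1449146_at and -0.047 to 0.31 for Maml2 1427926_at. The cause was not tested. The filter dropped probe sets with mean log2 intensity under 4.41, among them 2 of the 3 Heyl probe sets.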
